A study of Mus musculus with 12 samples.

Results

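Deubiquitinating enzymes are proteases that cut ubiquitin from other proteins or from ubiquitin chains. They recycle ubiquitin at the proteasome, edit the chains that mark proteins for destruction or signalling, and remove the single ubiquitins that sit on histones and on replication proteins. The genes described here are those with mouse symbols of the families Usp (ubiquitin-specific proteases), Uchl (ubiquitin C-terminal hydrolases), Otud and Otub (ovarian tumour domain proteases), kept where the counts summed over all 12 libraries reached 100. Of 56980 gene IDs in the table, 64 matched by symbol and 56 were kept: 46 of 50 Usp genes, 6 of 8 Otud genes, 2 of 4 Uchl genes and both Otub genes. The 8 left out were Otud6a (20 counts), Otud7a (5), Uchl1 (13), Uchl4 (65), Usp26 (1), Usp43 (5), Usp51 (4) and Usp9y (0). Usp44, Usp18, Usp50 and Usp29 reached 100 counts only with the libraries treated with DOX: they had 5, 36, 16 and 88 counts in the CFZ and DMSO libraries together. A higher value of Usp44, Usp18 or Usp50 with DOX or with both drugs is therefore partly set by how the genes were chosen. So is a lower value of Usp18 with both drugs than with DOX alone. These values are given as a description. All 56 kept genes passed edgeR's filter on low counts and were tested with 16648 genes in all.

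Polyadenylated RNA was sequenced from NIH/3T3 cells, a line of mouse embryonic fibroblasts labelled wild type, after 8 h of treatment. The 4 groups were 200 nM carfilzomib (CFZ), 5 µM doxorubicin (DOX), both drugs at these doses (CFZ-DOX) and the vehicle DMSO, with 3 libraries each. Carfilzomib blocks the chymotrypsin-like site of the proteasome irreversibly, and doxorubicin is an anthracycline that poisons topoisomerase II and intercalates in DNA. All groups share 1 line, grown in DMEM with serum, and the labels do not say that the 3 libraries of a group came from separate cultures, so p-values measure the spread between these libraries, which may be technical.

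Total counts were 28278879 to 42033993 per library. All 8 fibroblast markers examined were present, with summed levels of 41870 to 103200 CPM (counts scaled to a common library size) in CFZ-DOX, 28460 to 65380 CPM in DOX, 17860 to 27640 CPM in CFZ and 24570 to 31730 CPM in DMSO libraries. Of 6 macrophage markers, 4 averaged under 1 CPM in every group. The summed level of the 6 was 20.9 to 37.2 CPM in CFZ-DOX and 4.24 to 6.62 CPM in DMSO libraries, nearly all of it Cd68 and Lyz2, while Ptprc did not exceed 0.211 CPM, Adgre1 0.0718 CPM and Tyrobp 0.0405 CPM. Libraries with doxorubicin differed more among themselves than the others: the chi-square of counts per degree of freedom between libraries of a group was 45.14 to 107.5 in DOX and CFZ-DOX and 12.37 to 28.76 in CFZ and DMSO. In both of these groups libraries 1 and 3 lay farthest apart, at 104 in DOX and 107.5 in CFZ-DOX, and library 1 was nearly as far from library 2 as library 3 was. Counts are also given without both libraries numbered 3, a choice made after seeing the data, and no count of called deubiquitinase genes moved by over 1.5 times without both libraries numbered 1. The 56 genes took 0.484 ± 0.022% of all counts in CFZ, 0.259 ± 0.048% in DOX, 0.197 ± 0.040% in CFZ-DOX and 0.432 ± 0.014% in DMSO libraries (SD, n = 3 each). Genes of ribosomal proteins took 4.08 ± 0.253%, 6.85 ± 0.290% and 10.0 ± 0.333% in CFZ, DOX and CFZ-DOX libraries, against 4.06 ± 0.179% in DMSO libraries, and their part in the values below was not tested beyond a scaling on these genes.

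The RefSeq promoter table (build GRCm38.p6, an older build than the GRCm39 of the counts) held windows of 300 bases, from 250 before to 50 after the start site, for 43 of the 56 genes. The median GC content was 64.7% in the 46 windows of deubiquitinase genes and 52.7% in all 32851 windows, and the median number of CpG pairs was 27.5 and 7. The core of the antioxidant response element, TGACNNNGC read on both strands, was searched because proteasome inhibition is known to engage factors that bind it. It was found in the windows of 11 genes, and in 12.4% of all windows. Of the genes called higher with CFZ (below), 9 had a window and 1 of them, Usp36, held the core. None of the 4 called lower with CFZ that had a window held it, and 10 of the 30 genes called in neither direction did. The heat shock element, 3 alternating units of GAA and TTC with 2 bases between units, searched on both strands and counted once per window, was in no deubiquitinase window and in 0.603% of all windows. These are matches of letters, not binding sites. The windows below belong to the genes with the largest rise (Usp3) and the largest fall (Usp46) with CFZ and the largest fall with DOX (Usp10), among those with a window and a mean of at least 5 CPM, and to Usp36. Capitals mark the core of the antioxidant response element, at bases 292 to 300 of the Usp10 window and at bases 30 to 38 of the Usp36 window.
Usp3, chr9:66593066-66593365, minus strand: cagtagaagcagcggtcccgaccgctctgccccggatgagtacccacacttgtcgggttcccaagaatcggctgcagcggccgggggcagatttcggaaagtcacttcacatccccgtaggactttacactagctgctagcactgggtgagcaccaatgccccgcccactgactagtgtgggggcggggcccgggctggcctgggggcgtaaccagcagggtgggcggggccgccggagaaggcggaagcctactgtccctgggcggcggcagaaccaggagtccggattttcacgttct
Usp46, chr5:74068362-74068661, minus strand: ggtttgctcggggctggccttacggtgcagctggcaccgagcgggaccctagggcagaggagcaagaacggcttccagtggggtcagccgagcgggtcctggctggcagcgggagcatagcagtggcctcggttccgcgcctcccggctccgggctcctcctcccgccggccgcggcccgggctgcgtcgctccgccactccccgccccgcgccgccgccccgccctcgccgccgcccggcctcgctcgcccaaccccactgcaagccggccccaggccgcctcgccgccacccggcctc
Usp10, chr8:119910110-119910409, plus strand: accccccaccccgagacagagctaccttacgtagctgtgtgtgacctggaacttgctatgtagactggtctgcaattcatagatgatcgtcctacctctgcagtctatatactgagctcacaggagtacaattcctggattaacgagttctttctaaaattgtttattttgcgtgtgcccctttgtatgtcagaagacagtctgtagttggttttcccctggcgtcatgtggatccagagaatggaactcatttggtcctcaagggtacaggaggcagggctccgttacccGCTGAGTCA
Usp36, chr11:118290195-118290494, minus strand: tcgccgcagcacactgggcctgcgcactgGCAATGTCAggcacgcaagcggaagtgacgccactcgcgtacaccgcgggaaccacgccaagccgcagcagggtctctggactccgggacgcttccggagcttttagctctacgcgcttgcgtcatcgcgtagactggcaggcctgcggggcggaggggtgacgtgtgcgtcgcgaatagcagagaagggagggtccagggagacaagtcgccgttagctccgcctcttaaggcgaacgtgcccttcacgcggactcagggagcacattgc

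Without drugs, deubiquitinase RNAs covered a wide range of levels per unit of exon length. In DMSO libraries Usp1, which deubiquitinates FANCD2 and PCNA, had the highest level, 63.0 ± 6.10 CPM per kb of exon (SD, n = 3), and Usp5, which takes apart free ubiquitin chains, followed at 49.6 ± 0.729 CPM per kb. Otub1 had 42.8 ± 1.87, Usp39 39.1 ± 3.49, Usp7 34.1 ± 0.943 and Otud6b 30.6 ± 0.978 CPM per kb, and Otub1 and Usp39 lay within their combined spread. The median of the 56 genes was 6.59 CPM per kb in DMSO libraries, and the lowest were Usp44 (0.0108 CPM per kb), Usp50, Usp29 and Usp18. Usp5 ranked first in all 3 drug groups, at 90.6 ± 3.21 CPM per kb in CFZ, 52.6 ± 7.58 in DOX and 44.5 ± 9.30 in CFZ-DOX libraries. Usp7 ranked 3rd in CFZ libraries, 10th in DOX libraries and 11th in CFZ-DOX libraries, against 5th in DMSO libraries. In CFZ libraries Usp7 (41.8 ± 0.525), Usp39 (40.5 ± 1.97) and Usp1 (40.4 ± 5.29) lay within their combined spread. So did Usp5 and the next gene, Usp39 (33.0 ± 4.08), in CFZ-DOX libraries. Exon length varied from 1668 to 18453 bases among the 56 genes, and levels below are CPM per gene, not per kb, for comparisons of a gene with itself.

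Carfilzomib alone raised 13 deubiquitinase genes and lowered 5 at an adjusted p under 0.05 (edgeR's quasi-likelihood test, Benjamini-Hochberg over all genes). Over all 16648 genes 14.4% were called higher and 14.4% lower, and the median log2 fold change was 0.14 over the 56 genes and -0.01 over all genes. The largest rises were of Usp3 (log2 fold change 1.22 ± 0.18, SE), Usp27x (1.07 ± 0.36), Usp14 (1.0 ± 0.17), Usp45 (0.99 ± 0.15), Usp5 (0.87 ± 0.16) and Usp33 (0.84 ± 0.19), and the falls were of Usp29 (-2.04 ± 0.44), Usp46 (-1.30 ± 0.12), Usp1 (-0.64 ± 0.20), Uchl3 (-0.50 ± 0.15) and Usp21 (-0.47 ± 0.14). Usp14, Usp16, Usp19, Usp3, Usp30, Usp45 and Usp5 were called higher, and Uchl3, Usp21, Usp29 and Usp46 lower, under all 5 scalings tried. Over all genes, 7.91% and 12% passed that rule in each direction. Usp15, Usp27x, Usp36, Usp9x, Uchl3, Usp1 and Usp21 missed the threshold when 1 library was left out. The 5 falls became 2 without CFZ library 1, CFZ library 3 or DMSO library 3 and 3 without DMSO library 2. Falls over all genes were 1510 to 1768 in these cases, against 2395 with all libraries. Without DOX library 3 and CFZ-DOX library 3, which share the estimate of the spread, the counts were 22 higher and 12 lower. Over all genes they were 3505 higher and 4011 lower of 16712, against 2402 and 2395 of 16648 with all libraries. With the replicate number as a block, 6 more genes were higher, namely Usp7 (adjusted p = 0.0494, edgeR), Usp8 (0.0336), Usp20 (0.0139), Usp22 (0.019), Usp34 (0.019) and Usp38 (0.0455), and Usp44 was lower (0.036). Over all genes 2966 were then higher and 3158 lower. In RNA of a whole culture, fewer cells of one state and less RNA per cell cannot be told apart.

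Doxorubicin alone lowered 28 of the 56 genes and raised 7, beside 31.3% and 36.1% of all genes. The median log2 fold change was -0.34 over the 56 genes and 0.14 over all genes. Usp10, Usp28, Usp33, Usp31, Usp34, Otud7b, Usp12, Usp42 and Usp7 fell the most, with log2 fold changes of -2.06 to -1.42, and 18 genes fell by at least 2-fold, beside 19.3% of all genes. Usp44 (log2 fold change 3.38 ± 0.54), Usp18 (2.57 ± 0.55), Usp50 (2.09 ± 0.72) and Usp11 (1.62 ± 0.25) were the highest, all 4 at low levels, and Usp44, Usp18 and Usp50 were kept only through libraries with DOX. Under all 5 scalings 21 genes were lower and 3 (Usp11, and Usp18 and Usp44, kept only through libraries with DOX) were higher, beside 22.3% and 13.4% of all genes. The calls of Usp13, Usp19, Usp25 and Usp53 (lower) and of Usp3, Usp20 and Usp50 (higher) were lost without 1 library, and the 7 rises became 4 without DMSO library 2. Over all genes 5601 were higher without that library, against 6010 with it. Without DOX library 3 and CFZ-DOX library 3, 32 genes were lower and 6 higher. Over all genes 5986 were lower and 6308 higher of 16712, against 5213 and 6010 of 16648. With the replicate block, Uchl5 was also lower (adjusted p = 0.021, edgeR), and Usp22 (0.0492) and Usp38 (0.0371) were higher. Over all genes 5600 were then lower and 6512 higher.

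With both drugs, 33 genes were lower and 7 higher than with DMSO, beside 35.7% and 39.3% of all genes, and the median log2 fold change was -0.88 over the 56 genes and 0.09 over all genes. Against CFZ alone, CFZ-DOX libraries had 39 genes lower and 7 higher, beside 36.9% and 40.4% of all genes, with medians of -0.90 and 0.09. Under all 5 scalings 25 genes were lower and 2 (Usp44 and Usp50, both kept only through libraries with DOX) higher than with DMSO, beside 24.8% and 11.1% of all genes, and 27 were lower and 1 (Usp44) higher than with CFZ, beside 25.3% and 13.3%. Without both libraries numbered 3 the counts were 36 lower and 6 higher against DMSO, and 44 lower and 7 higher against CFZ. Over all 16712 genes then tested they were 6610 lower and 6517 higher against DMSO, and 6666 lower and 6803 higher against CFZ. Against DOX alone only a few genes moved: 7 were lower and 2 higher, beside 12% and 10.3% of all genes, with medians of -0.13 and 0.03. The 7 were Usp18, Usp9x, Otub1, Otud6b, Usp47, Usp25 and Usp46, and the 2 were Usp44 and Usp16. Of these 9, Otub1, Otud6b, Usp18, Usp25, Usp47 and Usp9x were called lower under all 5 scalings, beside 8.34% of all genes. None was called higher under all 5, beside 0.757%. Usp18 was kept only through the DOX libraries and Usp44 only through the CFZ-DOX libraries, so their calls against DOX are a description. Without CFZ-DOX library 3 the 7 became 14, and without both libraries numbered 3 the counts were 14 lower and 4 higher. Over all genes 2558 of 17049 were lower in the first case, and 2865 lower and 1965 higher of 16712 in the second. With the replicate block 12 of the 56 genes were lower and 4 higher, beside 2839 and 2685 of all 16648. The added ones were Usp8 (adjusted p = 0.0409, edgeR), Usp22 (0.0135), Usp29 (0.0193), Usp31 (0.048) and Usp54 (0.0385) lower and Usp19 (0.0343) and Usp33 (0.0136) higher. These comparisons share libraries: each drug group was set against the same 3 DMSO libraries, and CFZ-DOX enters 3 of the comparisons.

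**Figure D1:**
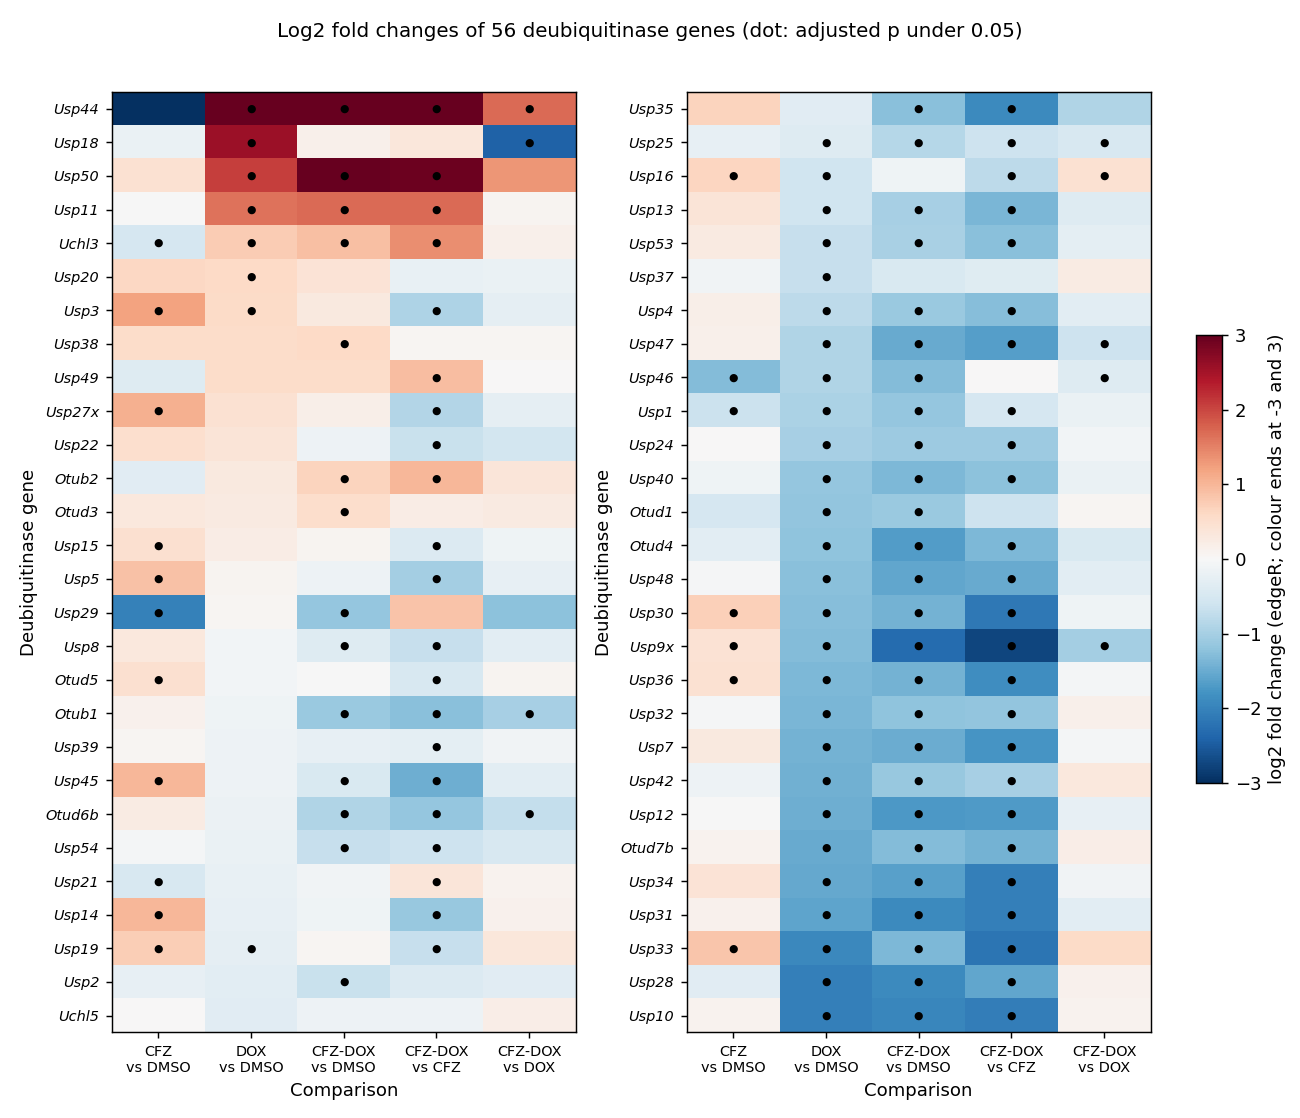
Log2 fold changes (edgeR) of the 56 deubiquitinase genes, 1 per row, in 5 comparisons, 1 per column, ordered by the change with DOX. Red is higher and blue lower in the first-named group, colours end at -3 and 3, and a dot marks an adjusted p under 0.05: the columns for DOX and CFZ-DOX against DMSO and for CFZ-DOX against CFZ are mostly blue, with 28, 33 and 39 genes called lower, and that for CFZ-DOX against DOX has 7.

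At the proteasome, carfilzomib raised Usp14 RNA, while Uchl5 RNA passed the test in no comparison without a replicate block. With the block Uchl5 was lower with DOX (-0.34, adjusted p = 0.021, edgeR). Usp14 trims ubiquitin chains on proteins held at the regulatory particle, and Uchl5 is bound there through Adrm1. Usp14 had 232, 241 and 266 CPM in CFZ libraries, 111, 116 and 82.6 CPM in DOX libraries and 127, 125 and 85.2 CPM in CFZ-DOX libraries, against 114, 128 and 127 CPM in DMSO libraries. All CFZ libraries lay above all others, while the DOX and CFZ-DOX libraries overlapped the DMSO libraries. Against DMSO the log2 fold change was 1.0 ± 0.17 with CFZ (adjusted p = 0.000586, edgeR), -0.25 ± 0.17 with DOX (adjusted p = 0.196) and -0.13 ± 0.17 with both drugs (adjusted p = 0.491). Exons of Usp14 share 26% of their bases with Thoc1 on the other strand, and the strand setting of the counting was not given. Thoc1 itself had 50.3 ± 5.05 CPM in CFZ and 45.6 ± 5.82 CPM in DMSO libraries (SD, n = 3 each; adjusted p = 0.513, edgeR). Uchl5 had 54.5, 67.96 and 74.6 CPM with CFZ, 47.8, 61.7 and 45.98 CPM with DOX and 54.6, 66.4 and 56.1 CPM with both, against 57.5, 69.96 and 69.3 CPM with DMSO. These ranges overlapped in every pair of groups, and the log2 fold change with CFZ was 0.00 ± 0.16 (adjusted p = 1, edgeR).

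The enzymes of free ubiquitin were split. Usp5, also called isopeptidase T, had 429, 424 and 402 CPM in CFZ libraries, 272, 253 and 204 CPM in DOX libraries and 219, 239.8 and 157 CPM in CFZ-DOX libraries, against 226, 229.6 and 233 CPM in DMSO libraries. It was higher in every CFZ library than in any other library, with a log2 fold change of 0.87 ± 0.16 (adjusted p = 0.00123, edgeR), and it was called in neither direction with DOX or with both drugs against DMSO. Its paralog Usp13 was low, at 3.75 ± 0.443 CPM in CFZ, 1.91 ± 0.560 CPM in DOX, 1.45 ± 0.136 CPM in CFZ-DOX and 2.88 ± 0.304 CPM in DMSO libraries (SD, n = 3 each). Usp13 fell with DOX (-0.59 ± 0.24, adjusted p = 0.0385, edgeR), a call lost without DOX library 1, DMSO library 1 or DMSO library 3 (adjusted p = 0.167, 0.073 and 0.105), and with both drugs (-0.99 ± 0.25, adjusted p = 0.00208). Uchl3, which frees ubiquitin and NEDD8 from small adducts, went the other way under each drug. It had 21.97, 25.1 and 26.2 CPM with CFZ, 56.8, 67.6 and 50.7 CPM with DOX and 55.6, 75.8 and 62.1 CPM with both, against 31.1, 36.5 and 35.8 CPM with DMSO. The CFZ libraries were all below and the DOX and CFZ-DOX libraries all above the DMSO libraries. Its log2 fold change was -0.50 ± 0.15 with CFZ (adjusted p = 0.0239, edgeR), 0.76 ± 0.15 with DOX (0.000509) and 0.90 ± 0.15 with both (8.64e-05). The fall with CFZ missed the threshold without any single one of 5 libraries (adjusted p = 0.0505 to 0.112), and both rises turned into lower values, -0.12 with DOX and -0.73 with both drugs, when libraries were scaled on ribosomal protein genes. Of the 5 tested genes of the proteasome and of free ubiquitin, Usp14 and Uchl5 among them, 2 rose and 1 fell with CFZ (14.4% and 14.4% of all genes), and 1 rose and 1 fell with DOX (36.1% and 31.3%).

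**Figure D2:**
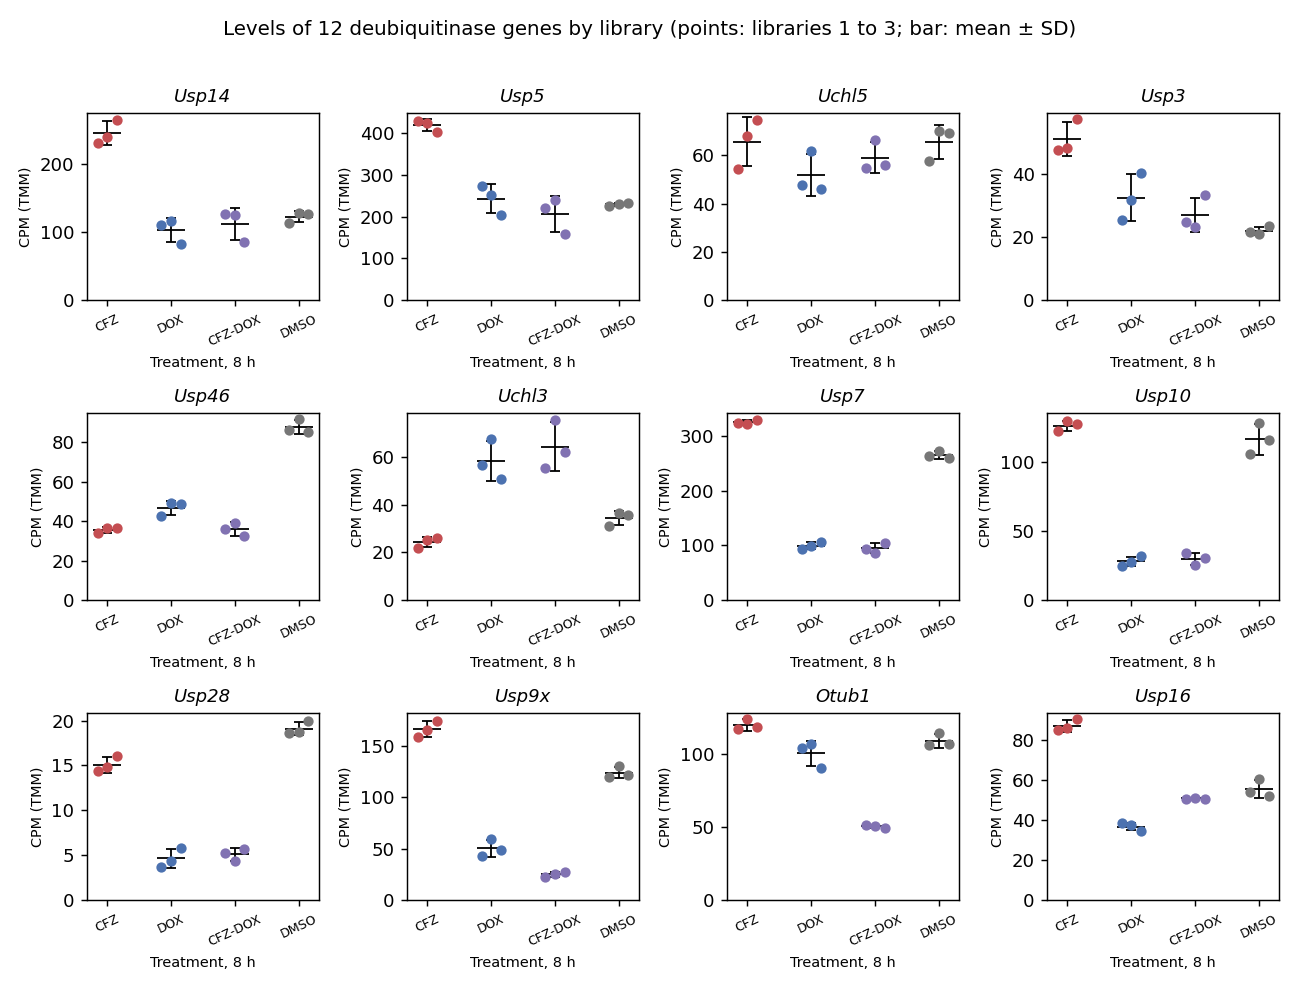
TMM-normalised CPM of 12 deubiquitinase genes in each library, by treatment (points are libraries 1 to 3, bars the mean ± SD). Usp14, Usp5 and Usp3 are highest in the 3 CFZ libraries, Usp46 is lower with each drug than with DMSO, Usp7, Usp10 and Usp28 are low in both groups with DOX, and Otub1 is low only in the CFZ-DOX libraries.

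Among enzymes that act on p53 or on its ubiquitin ligase MDM2, doxorubicin lowered 4 of 7 and raised none, beside 31.3% of all genes lower and 36.1% higher, and 28 of the 56 lower. The 4 were Usp7, Usp10, Otud1 and Usp24. Usp7, which deubiquitinates both p53 and MDM2, had 323, 322 and 329 CPM in CFZ libraries, 92.7, 99.1 and 106 CPM in DOX libraries and 93.8, 86.6 and 104 CPM in CFZ-DOX libraries, against 263, 273 and 259 CPM in DMSO libraries. Every DOX and CFZ-DOX library lay below every other library, and the log2 fold change was -1.42 ± 0.12 with DOX (adjusted p = 2.84e-07, edgeR) and 0.29 ± 0.12 with CFZ (0.0816). The rise of Usp7 with CFZ was called with the replicate block (adjusted p = 0.0494, edgeR). Usp10 lies on chromosome 8, 120637099 to 120684299 (GRCm39), and its enzyme deubiquitinates p53 in the cytoplasm and binds the stress granule protein G3bp1. It had 122, 129 and 127 CPM with CFZ, 24.7, 27.5 and 31.6 CPM with DOX and 33.9, 25.2 and 30.7 CPM with both, against 106, 128 and 116 CPM with DMSO. No library with DOX came near one without it. Against DMSO Usp10 differed by a log2 fold change of -2.06 ± 0.14 with DOX (adjusted p = 4.58e-08, edgeR), the largest fall with DOX among the 56 genes, and 0.10 ± 0.14 in CFZ-DOX against DOX (0.635).

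The other p53-linked genes moved less or were low. Usp24, a large protease, had 231 ± 20.7 CPM in CFZ, 115 ± 13.9 CPM in DOX, 108 ± 8.20 CPM in CFZ-DOX and 229.8 ± 18.1 CPM in DMSO libraries (SD, n = 3 each), with a log2 fold change of -1.0 ± 0.14 with DOX (adjusted p = 1.78e-05, edgeR). Otud1, a gene of 1 exon, had 10.2, 15.5 and 14.1 CPM with CFZ, 6.25, 5.96 and 12.6 CPM with DOX and 7.61, 4.86 and 13.4 CPM with both, against 16.6, 20.3 and 19.3 CPM with DMSO. Library 3 was the highest in each group with DOX, and its log2 fold change with DOX was -1.18 ± 0.34 (adjusted p = 0.00662, edgeR). Otud5 had 45.6, 46.9 and 48.03 CPM with CFZ, 30.2, 32.1 and 33.1 CPM with DOX and 36.5, 30.8 and 33.1 CPM with both, against 32.4, 33.8 and 34.6 CPM with DMSO. All CFZ libraries stood above the DMSO range and the other groups overlapped it (0.48 ± 0.12, adjusted p = 0.00732, edgeR). Usp2, an MDM2 deubiquitinase, had 5.69, 5.11 and 5.49 CPM with CFZ, 3.68, 4.62 and 7.12 CPM with DOX and 3.34, 2.79 and 6.01 CPM with both, against 7.38, 6.20 and 5.73 CPM with DMSO. Its groups overlapped except CFZ against DMSO, and the single call, lower with both drugs (-0.66 ± 0.29, adjusted p = 0.0472, edgeR), was lost without any one of 6 libraries (adjusted p = 0.0506 to 0.169).

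Otub1 was low in 1 group only. It lies on chromosome 19, 7175567 to 7183681 (GRCm39), and its protein restrains ubiquitin-conjugating enzymes, among them the partners of MDM2, without cutting. The levels were 51.5, 50.3 and 49.2 CPM in CFZ-DOX libraries, 117, 124 and 118 CPM in CFZ libraries and 104, 106 and 90.5 CPM in DOX libraries, against 106, 114 and 106 CPM in DMSO libraries. The CFZ-DOX libraries lay far below all others, and the CFZ and DOX libraries differed from DMSO by little (0.13 ± 0.11 and -0.12 ± 0.11, adjusted p = 0.396 and 0.341, edgeR). In CFZ-DOX libraries Otub1 was lower than with DMSO (-1.11 ± 0.11, adjusted p = 6.2e-07), than with CFZ (-1.25 ± 0.11, 1.96e-07) and than with DOX (-0.99 ± 0.11, 8.77e-05), under all 5 scalings.

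Of 8 tested genes of DNA damage and replication, 4 fell and 1 rose with DOX (31.3% and 36.1% of all genes), and 2 fell and 1 rose with CFZ (14.4% and 14.4%). Usp1, with its partner UAF1, removes ubiquitin from FANCD2 and PCNA. It had 128, 163 and 162 CPM in CFZ libraries, 103, 106 and 155 CPM in DOX libraries and 96.6, 83.96 and 136 CPM in CFZ-DOX libraries, against 209, 252 and 244 CPM in DMSO libraries. Every drug-treated library was below every DMSO library. The log2 fold change was -0.64 ± 0.20 with CFZ (adjusted p = 0.0252, edgeR; 0.0575 to 0.117 without any one of 4 libraries), -0.96 ± 0.20 with DOX (0.000704) and -1.16 ± 0.20 with both (0.000111). Usp28, which binds 53BP1 and stabilises MYC, had 14.4, 14.8 and 16.1 CPM with CFZ, 3.71, 4.34 and 5.85 CPM with DOX and 5.24, 4.33 and 5.74 CPM with both, against 18.6, 18.8 and 20.01 CPM with DMSO. The DOX and CFZ-DOX libraries were below all the others, with log2 fold changes of -2.04 ± 0.19 (adjusted p = 4.21e-07, edgeR) and -1.90 ± 0.19 (4.93e-07).

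Usp47, which stabilises DNA polymerase beta, fell with DOX and lay lower still with both drugs. It had 83.6 ± 7.10 CPM in CFZ-DOX, 265 ± 9.74 CPM in CFZ, 129 ± 14.2 CPM in DOX and 239 ± 10.1 CPM in DMSO libraries (SD, n = 3 each). It differed by -0.62 ± 0.13 (log2) in CFZ-DOX against DOX (adjusted p = 0.00403, edgeR). Usp45, which acts with the repair nuclease subunit ERCC1, had 75.2, 76.1 and 82.3 CPM with CFZ, 28.9, 35.3 and 41.8 CPM with DOX and 26.97, 24.6 and 33.6 CPM with both, against 39.1, 39.6 and 38.9 CPM with DMSO. It was highest in the 3 CFZ libraries (0.99 ± 0.15, adjusted p = 0.000259, edgeR), and in the CFZ-DOX libraries it was lower than with DMSO (-0.47 ± 0.15, 0.0123), a difference of 0.03 without a call under upper-quartile scaling. Otub2 had 14.2, 15.3 and 26.1 CPM with both drugs, 9.97, 9.40 and 8.47 CPM with CFZ and 11.5, 11.5 and 20.1 CPM with DOX, against 11.9, 10.6 and 12.5 CPM with DMSO. CFZ-DOX library 3 was its highest among the libraries with both drugs, and the rise with both drugs against DMSO (0.67 ± 0.25, adjusted p = 0.0253, edgeR) was 0.34 without that library (0.174), missed the threshold without DMSO library 1 or DMSO library 2 (0.058 and 0.0885), and turned to -0.93 under ribosomal protein scaling. Usp11, which works in homologous recombination, had 365 counts over the DOX libraries, 294 over CFZ-DOX, 114 over CFZ and 127 over DMSO libraries, and was higher with DOX (1.62 ± 0.25, adjusted p = 5.22e-05, edgeR). Usp29, an imprinted gene, had 16 counts over the CFZ libraries and 72 over the DMSO libraries. Usp37, a regulator of entry into S phase, had 32.7 ± 9.07 CPM in DOX and 53.1 ± 3.10 CPM in DMSO libraries (-0.70 ± 0.21, adjusted p = 0.00768, edgeR).

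Of 9 tested genes whose enzymes act on histones or in the nucleolus, 4 rose and 1 fell with CFZ (14.4% and 14.4% of all genes), and 2 rose and 3 fell with DOX (36.1% and 31.3%). The rises with DOX were those of Usp3 and of Usp44, which was kept only through libraries with DOX. Usp3, which deubiquitinates H2A and H2B, lies on chromosome 9, 66421919 to 66500424 (GRCm39). It had 47.7, 48.4 and 57.5 CPM in CFZ libraries, 25.5, 31.7 and 40.4 CPM in DOX libraries and 24.7, 23.2 and 33.2 CPM in CFZ-DOX libraries, against 21.7, 20.9 and 23.5 CPM in DMSO libraries. Each CFZ library was above every other library, and the DOX libraries were above DMSO by less. The log2 fold change was 1.22 ± 0.18 with CFZ (adjusted p = 0.000213, edgeR) and 0.56 ± 0.18 with DOX (0.0132; 0.0505 without DMSO library 2), and the DOX value became -0.26 under ribosomal protein scaling. Usp16, an H2A deubiquitinase, had 85.03, 86.1 and 90.7 CPM with CFZ, 38.3, 37.3 and 34.7 CPM with DOX and 50.5, 51.3 and 50.6 CPM with both, against 54.02, 60.4 and 51.9 CPM with DMSO. The 4 groups kept an order in which CFZ was highest and DOX lowest, with CFZ-DOX just under DMSO. Without a replicate block it was the 1 gene called higher with CFZ both without DOX (0.65 ± 0.11, adjusted p = 0.00054, edgeR) and with it (0.47 ± 0.11, 0.00911), although the second value was -0.30 without a call under ribosomal protein scaling. With the block Usp19 and Usp33 were called higher in both as well (CFZ-DOX against DOX, adjusted p = 0.0343 and 0.0136, edgeR). Exons of Usp16 share 2.03% of their bases with Cct8 on the other strand.

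Usp22, the H2B deubiquitinase of the SAGA complex, had 77.8, 86.1 and 85.3 CPM with CFZ, 65.4, 64.6 and 101 CPM with DOX and 49.02, 39.5 and 68.7 CPM with both, against 61.2, 56.8 and 58.1 CPM with DMSO. Library 3 was the highest in both groups with DOX, and without a replicate block no comparison with DMSO was called (0.50 ± 0.20, 0.39 ± 0.20 and -0.16 ± 0.20 in the same order, adjusted p = 0.0715, 0.093 and 0.463, edgeR). With the block Usp22 was called higher with CFZ and with DOX (adjusted p = 0.019 and 0.0492, edgeR). Its paralog Usp27x was higher with CFZ, at 5.08 ± 0.616 CPM against 2.43 ± 0.212 CPM in DMSO libraries (SD, n = 3 each; 1.07 ± 0.36, adjusted p = 0.0374, edgeR), and lost the call without any one CFZ or DMSO library (0.0575 to 0.106). Usp36, a nucleolar enzyme of ribosome production, had 93.9, 108 and 94.8 CPM with CFZ, 25.9, 25.9 and 33.4 CPM with DOX and 25.3, 22.8 and 33.4 CPM with both, against 68.8, 79.3 and 68.9 CPM with DMSO. It was above DMSO in all CFZ libraries and below in all libraries with DOX (0.45 ± 0.16 and -1.35 ± 0.16, adjusted p = 0.0431 and 5.07e-06, edgeR), and the first call was lost without any one of 7 libraries (0.0503 to 0.149). Usp21 had 13.6 ± 1.16 CPM in CFZ and 18.8 ± 2.20 CPM in DMSO libraries (-0.47 ± 0.14, 0.0241), and its adjusted p was 0.074 to 0.137 without CFZ library 1, CFZ library 3 or DMSO library 3. Usp49 had 11.3, 13.8 and 20.9 CPM with both drugs, 8.16, 8.47 and 7.49 CPM with CFZ and 10.97, 11.98 and 22.7 CPM with DOX, against 11.02, 10.4 and 9.96 CPM with DMSO. CFZ-DOX libraries were above all CFZ libraries (0.93 ± 0.27, 0.0056), which turned to -0.57 under ribosomal protein scaling, and 51.2% of its exon bases are shared with Gm20517 on the same strand. Usp42 fell with DOX (-1.45 ± 0.21, 3.14e-05).

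Usp44, an H2B deubiquitinase that also holds the mitotic checkpoint, had no counts in any CFZ library. It had 18, 21 and 13 counts in DOX libraries and 35, 57 and 37 counts in CFZ-DOX libraries, against 1, 2 and 2 counts in DMSO libraries. Summed over a group the counts were 129 in CFZ-DOX and 0 in CFZ libraries. Set against 3 counts over the CFZ group, the limit that a count of 0 allows, the CFZ-DOX level was 46.2-fold higher. That value used library totals without TMM factors and took the 129 counts as they stand, so it is no bound. Against DOX, Usp44 was also higher in CFZ-DOX libraries (1.71 ± 0.36, adjusted p = 0.0059, edgeR), but under ribosomal protein scaling that call was not made. Counting limits cover counting error only. Without the CFZ-DOX libraries Usp44 had 57 counts, so it was kept only through the group in which it is highest. Its higher values there are a description.

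The 3 genes whose enzymes work with UAF1 (Wdr48), Usp1, Usp12 and Usp46, fell with DOX and with both drugs. Over all genes 31.3% and 35.7% were lower, and of the 56 genes 28 and 33 were. Usp46 lies on chromosome 5, 74159114 to 74229092 (GRCm39) and had 33.9, 36.4 and 36.7 CPM in CFZ libraries, 42.8, 49.1 and 48.6 CPM in DOX libraries and 36.1, 39.2 and 32.2 CPM in CFZ-DOX libraries, against 86.1, 91.7 and 85.3 CPM in DMSO libraries. All 9 drug-treated libraries lay below the DMSO range. The log2 fold change was -1.30 ± 0.12 with CFZ (adjusted p = 4.14e-06, edgeR), -0.90 ± 0.12 with DOX (1.43e-05) and -1.29 ± 0.12 with both (3.39e-07). CFZ and CFZ-DOX libraries differed by 0.01 ± 0.12 (0.955), and the smaller fall of CFZ-DOX against DOX (-0.39 ± 0.12, 0.0321) was lost without DOX library 2, CFZ-DOX library 1 or CFZ-DOX library 3 (0.0599 to 0.093). Its paralog Usp12 had 54.2 ± 4.30 CPM in CFZ, 19.8 ± 7.20 CPM in DOX, 16.5 ± 3.49 CPM in CFZ-DOX and 54.5 ± 4.72 CPM in DMSO libraries (SD, n = 3 each), with a log2 fold change of -1.46 ± 0.22 with DOX (4.55e-05) and -0.01 ± 0.21 with CFZ (0.992).

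Of 7 tested enzymes of endosomes, the endoplasmic reticulum and mitochondria, 3 rose with CFZ (14.4% of all genes), and 5 fell and 1 rose with DOX (31.3% and 36.1%). Usp33, Usp30 and Usp19 did both. Usp33, which recycles receptors and trims ubiquitin from them, had 65.1, 57.98 and 67.4 CPM in CFZ libraries, 8.34, 7.98 and 11.6 CPM in DOX libraries and 11.9, 11.1 and 18.4 CPM in CFZ-DOX libraries, against 37.00, 34.4 and 34.8 CPM in DMSO libraries. CFZ libraries were all above and libraries with DOX all below the DMSO libraries (0.84 ± 0.19, -1.92 ± 0.20 and -1.36 ± 0.20, adjusted p = 0.00446, 1.48e-06 and 2.12e-05, edgeR). Usp30, which sits in the outer mitochondrial membrane and opposes mitophagy, had 33.6, 34.5 and 33.5 CPM with CFZ, 7.66, 7.61 and 9.91 CPM with DOX and 8.66, 7.65 and 6.76 CPM with both, against 20.8, 20.96 and 19.7 CPM with DMSO. The same order held (0.73 ± 0.15, -1.29 ± 0.15 and -1.41 ± 0.15, 0.00235, 5.49e-06 and 1.49e-06). Usp19, anchored in the endoplasmic reticulum, had 178 ± 1.14 CPM in CFZ, 88.2 ± 3.86 CPM in DOX, 111 ± 13.4 CPM in CFZ-DOX and 107 ± 3.33 CPM in DMSO libraries (SD, n = 3 each; 0.74 ± 0.12 with CFZ, adjusted p = 0.000357). Its small fall with DOX (-0.28 ± 0.12, 0.0486) missed the threshold without any one of the 9 libraries of CFZ, DOX and DMSO (0.0594 to 0.171) and was 0.10 without a call under upper-quartile scaling.

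Usp8, which spares endosomal cargo such as growth factor receptors from the lysosome, had 119, 109.6 and 117 CPM with CFZ, 97.3, 87.8 and 78.7 CPM with DOX and 76.7, 73.7 and 62.9 CPM with both, against 95.5, 90.6 and 92.7 CPM with DMSO. CFZ libraries were above and CFZ-DOX libraries below the DMSO libraries, and the second difference was called (-0.39 ± 0.12, adjusted p = 0.00973, edgeR), though not under upper-quartile scaling (0.11). The first was called with the replicate block (adjusted p = 0.0336, edgeR) and not without it (0.0678). Usp20, the paralog of Usp33, had 27.3, 27.00 and 24.2 CPM with CFZ, 17.8, 22.7 and 36.8 CPM with DOX and 19.7, 20.2 and 27.7 CPM with both, against 16.5, 16.4 and 18.5 CPM with DMSO. The DOX libraries overlapped the DMSO libraries through DOX library 1, and the call with DOX (0.59 ± 0.22, 0.0303) rested on DOX library 3, without which it was 0.34 (0.097). That value was also lost without any one DMSO library (0.0501 to 0.0859) and turned to -0.21 under ribosomal protein scaling. Usp32, an endosomal enzyme that acts on Rab7, fell with DOX (-1.37 ± 0.15, 2.89e-06). Usp25 fell with DOX (-0.38 ± 0.13, 0.0181; 0.0529 to 0.0678 without DOX library 1, DOX library 2 or DMSO library 2) and was lower with both drugs than with DOX (-0.48 ± 0.13, 0.0166; 0.0602 without CFZ-DOX library 2).

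Genes of enzymes known from inflammatory and interferon signalling fell with DOX in 4 of 7 tested cases, with 1 higher, beside 31.3% and 36.1% of all genes and 28 and 7 of the 56. The 1 higher was Usp18, which was kept only through the DOX libraries. Usp31 had 71.4, 81.2 and 75.4 CPM in CFZ libraries, 21.7, 22.01 and 25.6 CPM in DOX libraries and 17.8, 17.3 and 20.1 CPM in CFZ-DOX libraries, against 66.00, 74.4 and 66.5 CPM in DMSO libraries. The 2 groups with DOX lay far below the other 2 (-1.58 ± 0.13 and -1.90 ± 0.13, adjusted p = 1.47e-07 and 1.84e-08, edgeR). Otud7b, which cuts chains linked through lysine 11 and restrains NF-kappaB, fell with DOX (-1.50 ± 0.17, 3.61e-06), as did Otud4 (-1.21 ± 0.22, 0.000229) and Usp4 (-0.78 ± 0.16, 0.0007). Usp15, a paralog of Usp4 that acts on TGF-beta receptors, had 201 ± 23.6 CPM in CFZ and 143 ± 14.1 CPM in DMSO libraries (SD, n = 3 each; 0.49 ± 0.13, 0.0134; 0.0769 and 0.0772 without CFZ library 3 or DMSO library 1). Usp38 had 33.5, 25.7 and 55.1 CPM with both drugs, 34.9, 35.7 and 39.8 CPM with CFZ and 27.9, 31.6 and 50.6 CPM with DOX, against 24.7, 27.3 and 23.6 CPM with DMSO. Library 3 was the highest in both groups with DOX, and the rise with both drugs (0.60 ± 0.25, 0.0439) was 0.23 (0.323) without CFZ-DOX library 3, 0.18 (0.192) without both libraries numbered 3, and -1.01 under ribosomal protein scaling. It also missed the threshold without any one of 7 other libraries (0.0536 to 0.123).

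Usp18, which removes the ubiquitin-like protein ISG15 and is a known interferon-stimulated gene, was called higher with DOX and not with both drugs. Of its 168 counts 116 lay in DOX libraries, so that it was kept only through the group in which it is high. It had 28, 15 and 73 counts in DOX libraries, 3, 5 and 8 counts in CFZ libraries and 6, 2 and 8 counts in CFZ-DOX libraries, against 8, 5 and 7 counts in DMSO libraries. All DOX libraries were above all the others, with DOX library 3 well above its group. Its log2 fold change with DOX was 2.57 ± 0.55 (adjusted p = 0.000889, edgeR) and 1.88 (0.0038) without DOX library 3. In CFZ-DOX libraries Usp18 was lower than with DOX (-2.42 ± 0.57, 0.00898), a value likewise partly set by how the genes were chosen.

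Of 4 further genes, Usp39, Usp53, Usp54 and Usp50, 1 rose and 1 fell with DOX (36.1% and 31.3% of all genes). The rise was that of Usp50, which was kept only through libraries with DOX. With CFZ 0 rose and 0 fell (14.4% and 14.4%). Usp39, a part of the spliceosome, had 99.02 ± 4.83 CPM in CFZ, 86.7 ± 5.33 CPM in DOX, 80.6 ± 9.99 CPM in CFZ-DOX and 95.7 ± 8.53 CPM in DMSO libraries (SD, n = 3 each), and no comparison with DMSO was called without a replicate block. With the block Usp39 was lower with both drugs (adjusted p = 0.037, edgeR). Usp53 fell with DOX (-0.68 ± 0.25, adjusted p = 0.0272, edgeR; 0.0678 to 0.103 without DOX library 1, DOX library 2 or DMSO library 1), and Usp54 was lower with both drugs (-0.69 ± 0.18, 0.00293). Usp50 had 29 counts over DOX libraries, 55 over CFZ-DOX libraries and 9 over CFZ libraries, against 7 over DMSO libraries, and the rise with DOX (2.09 ± 0.72, 0.0186) missed the threshold without DOX library 1 (0.0779) or DMSO library 2 (0.066).

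Among the remaining broad-acting enzymes, Usp9x had the largest fall with both drugs. Usp9x lies on chromosome X, 12937737 to 13039567 (GRCm39), is a very large protease, and stabilises proteins such as MCL1. It had 22.4, 25.2 and 26.7 CPM in CFZ-DOX libraries, 159, 165 and 174 CPM in CFZ libraries and 42.9, 59.5 and 48.4 CPM in DOX libraries, against 119.7, 129.7 and 121 CPM in DMSO libraries. The 4 groups did not overlap, with CFZ highest, then DMSO, DOX and CFZ-DOX. Its log2 fold change was -2.32 ± 0.14 with both drugs (adjusted p = 8.53e-09, edgeR), -1.30 ± 0.13 with DOX (1.37e-06), -2.74 ± 0.14 in CFZ-DOX against CFZ (2.84e-09) and -1.02 ± 0.13 in CFZ-DOX against DOX (0.000256). The small rise with CFZ (0.42 ± 0.13, 0.0254) was lost without any one of 5 libraries (0.0541 to 0.0919).

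Usp34, with the greatest exon length of the 56 and a regulator of axin in Wnt signalling, had 260.1 ± 14.3 CPM in CFZ, 67.5 ± 9.32 CPM in DOX, 63.00 ± 12.1 CPM in CFZ-DOX and 194 ± 5.89 CPM in DMSO libraries (SD, n = 3 each; -1.53 ± 0.16 with DOX, adjusted p = 1.27e-06, edgeR). With CFZ it missed the threshold (0.42 ± 0.15, 0.0509) and passed it with the replicate block (0.43, adjusted p = 0.019, edgeR). Of its exon bases 11.6% lie opposite Ahsa2, a co-chaperone gene that had 165 ± 13.6 CPM in CFZ and 34.0 ± 2.63 CPM in DMSO libraries. The part of Ahsa2 reads in the Usp34 counts was not tested. Usp40 (-1.16 ± 0.16, 2.02e-05) and Usp48 (-1.25 ± 0.15, 8.01e-06) fell with DOX. Otud6b had 61.1, 62.7 and 42.3 CPM with both drugs, 119, 125 and 127 CPM with CFZ and 98.8, 98.02 and 77.1 CPM with DOX, against 99.7, 105 and 105 CPM with DMSO. CFZ-DOX libraries were below all others, by -0.72 ± 0.15 against DOX (0.00489) and -0.90 ± 0.15 against DMSO (8.9e-05). Otud3 was higher with both drugs (0.53 ± 0.17, 0.0104), which turned to -1.11 under ribosomal protein scaling, and Usp35 was lower (-1.26 ± 0.34, 0.004).

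The effect of carfilzomib on these genes was not the same with doxorubicin present. The interaction, the log2 effect of CFZ in the presence of DOX minus its effect without DOX, was called for 16 of the 56 genes, 13 lower and 3 higher, beside 11.2% and 8.46% of all genes. The median was -0.28 over the 56 genes and 0.04 over all genes. Under all 5 scalings Otub1, Otud6b, Usp3, Usp30, Usp35, Usp45, Usp47, Usp5 and Usp9x were called lower, beside 6.58% of all genes. Usp44, kept only through the CFZ-DOX libraries, was called higher, beside 1.47%, and its value is a description. The largest were of Usp3 (-1.48 ± 0.26, adjusted p = 0.0015, edgeR), Usp9x (-1.44 ± 0.19, 0.000227) and Usp45 (-1.31 ± 0.21, 0.00108) among the lower, and of Usp46 (0.91 ± 0.17, 0.00226) among the higher apart from Usp44, among genes of at least 5 CPM. Usp14 (-0.88 ± 0.24, 0.0195; 0.0523 and 0.0537 without DMSO library 1 or CFZ library 3), Uchl3, Usp15, Usp35 and Usp8 lost the call without 1 library. The 13 became 21 without CFZ-DOX library 3, and 23 lower and 7 higher without both libraries numbered 3. Calls over all genes grew too, from 1862 lower and 1408 higher of 16648. There were 2726 lower of 17049 in the first case, and 3117 lower and 2619 higher of 16712 in the second.

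The 13 genes that rose with CFZ alone had a median log2 fold change of 0.74 there and of -0.13 in CFZ-DOX against DOX, where 5 of the 13 estimates were above 0 and 1, Usp16, was called higher, or 3 with the replicate block (Usp16, Usp19 and Usp33). These 2 comparisons share no libraries. All 2402 genes called higher with CFZ alone had medians of 0.87 and 0.13. Over all 16648 genes 10.3% were called higher in CFZ-DOX against DOX, or 2685 genes with the replicate block. How many of the 2402 were called or above 0 there was not counted, so the counts of the 13 are a description. Both the 13 and the 2402 genes were chosen on CFZ alone, so their medians with CFZ alone are a description too. Across the 56 genes the 2 effects had a Spearman correlation of -0.002, and across all 16648 genes 0.152. Genes of 1 set of libraries are not independent, and no p is given.

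**Figure D3:**
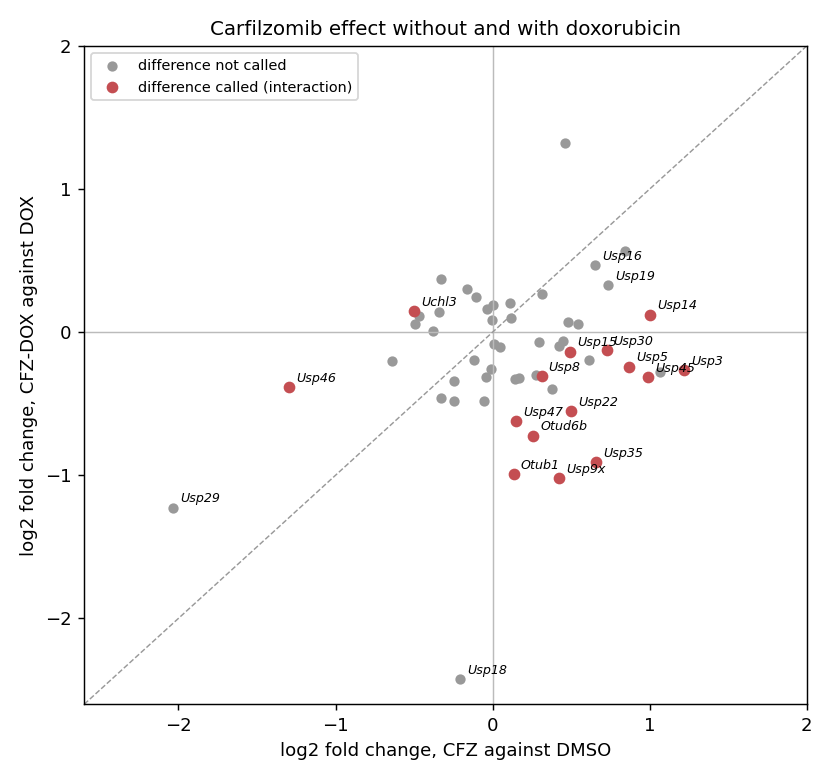
Log2 fold change (edgeR) of CFZ against DMSO on the horizontal axis and of CFZ-DOX against DOX on the vertical axis for 55 deubiquitinase genes, without Usp44, which had 0 counts with CFZ. Red points are genes whose difference between the 2 effects was called; Usp3, Usp45, Usp5 and Usp14 lie at the right, near 0 on the vertical axis, and the dashed line marks equal effects.

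Changes with doxorubicin went with the length of the gene in these 56 genes as in all genes. The Spearman correlation of the log2 fold change with the genomic span, which was 2832 to 236642 bases, was -0.322 over the 56 genes and -0.319 over all genes with DOX, -0.372 and -0.355 with both drugs, and -0.003 and 0.069 with CFZ. Of 20 genes with spans over 60 kb, 14 fell with DOX, beside 49.3% of all genes of that span. Of 25 with spans of 20 to 60 kb, 11 fell, beside 38.8%. Of 11 under 20 kb, 3 fell, beside 21.9%, namely Otud1, Usp1 and Usp19. In the same order 2, 4 and 1 rose with DOX, beside 17.5%, 27.3% and 46.4%. Among the rises were Usp18, Usp44 and Usp50, kept only through libraries with DOX. The 56 genes lay lower than all genes of the same span in each class. Their median log2 fold changes were -0.90, -0.34 and -0.12, beside -0.47, -0.14 and 0.52. The longest, Usp29, was called in neither direction with DOX (0.05 ± 0.37, adjusted p = 0.902, edgeR). The correlation with exon length was -0.468 over the 56 genes and -0.356 over all genes with DOX, and the correlation with the DMSO level per kb was -0.331 and -0.43. With the number of separate exon blocks of a gene it was -0.478 over the 56 genes and -0.241 over all genes. These properties go together across genes, and their separate parts were not tested.

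**Figure D4:**
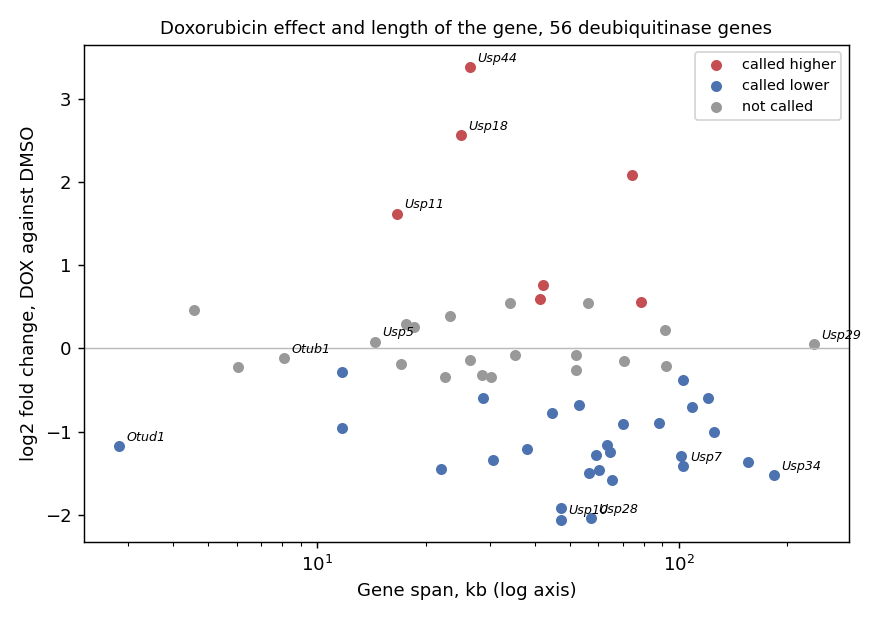
Genomic span of 56 deubiquitinase genes in kb (log axis) against the log2 fold change with DOX (edgeR), coloured by call. Among the 20 genes over 60 kb 14 were called lower, and among the 11 under 20 kb 3 were.

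Genes around the family moved partly alike. Over all genes 14.4% rose and 14.4% fell with CFZ, and 36.1% rose and 31.3% fell with DOX. Of 25 genes of other deubiquitinase families, 11 rose and 3 fell with CFZ, with a median log2 fold change of 0.48 beside -0.01 over all genes, and 5 rose and 12 fell with DOX (median -0.33 beside 0.14). With CFZ, Zup1 (1.46), Tnfaip3 (1.30), Stambp (1.12) and Psmd14 (0.94), the deubiquitinase of the proteasome lid, rose the most, and Mindy2 fell by 0.91. With DOX, Bap1 (-1.82), the H2A deubiquitinase, and Vcpip1 (-1.61) fell the most and Josd2 (1.27) rose the most. Of 21 partner proteins of deubiquitinases, 10 rose and 1 fell with CFZ (median 0.39), among them Adrm1 (1.40), the proteasome receptor that holds Uchl5, Psmd2 (1.12) and Stam (1.05), which binds Usp8. With DOX 6 rose and 10 fell (median -0.31), with Nfrkb (-2.62) and Ino80 (-2.20) of the INO80 complex lowest and Wdr48, the UAF1 gene, at -0.64. Of 13 proteases of ubiquitin-like proteins, 2 rose and 2 fell with CFZ (median 0.12), and 1 rose and 8 fell with DOX (median -0.84), with Atg4c (-2.91) and Senp7 (-2.38) lowest. Of these calls, 5 rises and 2 falls of the 25 further genes, 6 and 1 of partners and 1 and 1 of the last list held under all 5 scalings with CFZ, and 1 rise and 8 falls, 0 and 7, and 0 and 7 did with DOX. Over all genes that rule left 7.91% rises and 12% falls with CFZ, and 13.4% and 22.3% with DOX. The rise held with DOX was that of Josd2.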

How the data were processed

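Polyadenylated RNA of NIH/3T3 cells was measured in 12 libraries, 3 for each of CFZ, DOX, CFZ-DOX and DMSO, and titles of the samples gave the group and replicate number. Raw counts were deposited by the authors as 1 table and are whole reads assigned to each Ensembl gene. The submitters' processing notes name Trimmomatic 0.39, STAR 2.7.9a, Subread 2.0.2 with featureCounts, and GRCm39. Neither the annotation release nor the strand used in counting is given in the sources used here, and overlapping genes may share reads. IDs without a symbol held 0.249 to 0.724% of a library's counts and stayed in the tests.

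Genes passing filterByExpr (minimum count 10, minimum total 15), 16648 in all, were tested with edgeR 4.0.16 in R 4.3.3 (TMM scaling, robust quasi-likelihood fit of all 12 libraries, prior count 0.125), with Benjamini-Hochberg adjustment over all of them. A call is an adjusted p under 0.05. CPM values use TMM factors. A standard error is the size of the log2 fold change over the root of its F statistic. The procedure was run on simulated counts with known changes in CFZ only. That run held no broad changes such as those with DOX, so it could not test the calls with DOX. The genes, lists and rules were chosen with earlier results of these data known. Values in every library are given for 18 listed genes and for the 3 highest and 3 lowest called genes of at least 5 CPM in each comparison. Replicate numbers pair the libraries in CFZ against DMSO (correlations of deviations 0.377, 0.303 and 0.416), DOX against DMSO (0.251, 0.256 and 0.207) and CFZ-DOX against DOX (0.581, 0.353 and 0.654), by the rule that every pair exceeds 0.1, and not in the other comparisons. Alternatives were RLE, library-size, upper-quartile and ribosomal protein scaling (76 genes), no filter, DESeq2 1.42.0, only the libraries compared, a replicate block and each library left out. Leaving out both libraries numbered 3 or both numbered 1 of DOX and CFZ-DOX and the rule of 5 scalings were added after seeing the data.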

Additional observations from a re-analysis of the deposited data

Results flagged for a closer look

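For 16 genes the effect of CFZ with DOX present differed from its effect without DOX by edgeR's test of that difference (the interaction, as log2 with DOX minus log2 without). The difference was negative for Usp35 (-1.57), Usp3 (-1.48), Usp9x (-1.44), Usp45 (-1.31), Otub1 (-1.13), Usp5 (-1.11), Usp22 (-1.05), Otud6b (-0.98), Usp14 (-0.88), Usp30 (-0.85), Usp47 (-0.77), Usp15 (-0.63) and Usp8 (-0.62). It was positive for Usp44 (5.40), Usp46 (0.91) and Uchl3 (0.64). The Usp44 value is no bound and depends on the prior count, since its CFZ libraries held 0 counts. Usp44 was also kept only through the CFZ-DOX libraries.

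These 16 fall into different patterns. Usp14, Usp3, Usp5, Usp45, Usp15 and Usp30 rose with CFZ alone and were not called in CFZ-DOX against DOX. Otub1, Otud6b and Usp47 were not called with CFZ alone and were lower in CFZ-DOX than in DOX. Usp9x rose with CFZ alone and was lower in CFZ-DOX than in DOX, and Usp46 was lower in both settings, by less with DOX present. Uchl3 was lower with CFZ alone and not called in CFZ-DOX against DOX, and Usp44 was not called with CFZ alone and was higher in CFZ-DOX than in DOX. Usp8, Usp22 and Usp35 were called in neither of the 2 comparisons. With the replicate number as a block, Usp8 and Usp22 were called in both, higher with CFZ alone (adjusted p = 0.0336 and 0.019, edgeR) and lower in CFZ-DOX against DOX (0.0409 and 0.0135), and Usp44 was lower with CFZ alone (0.036).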

How the results depend on the processing

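Over all genes the median log2 change shifted under ribosomal protein scaling by -0.87 with DOX, -1.65 with both drugs against DMSO, -1.55 against CFZ, -0.78 against DOX and -0.69 in the interaction, under upper-quartile scaling by 0.38, 0.50, 0.54, 0.12 and 0.17, and under library-size scaling by -0.12, -0.35, -0.26, -0.22 and -0.14, and with CFZ it shifted by less than 0.1 under each. The median of the 56 genes minus that of all genes stayed between -0.73 and -0.41 with DOX, -1.35 and -0.89 with both drugs, -1.41 and -0.90 against CFZ, -0.22 and -0.08 against DOX and 0.09 and 0.18 with CFZ over all alternatives run. With CFZ the 13 rises were 8 under library-size scaling, 7 under ribosomal protein scaling and 23 with only the libraries compared, where the 5 falls were 11. In the same order the 2402 rises over all genes were 1502, 1378 and 3918 (of 13865), where the 2395 falls were 4007. With DOX the 7 rises were 16 under upper-quartile and 3 under ribosomal protein scaling. The 6010 rises over all genes were 8069 and 2232. With both drugs against DMSO the 7 rises were 4 (library size), 15 (upper quartile) and 2 (ribosomal protein), and the 33 falls were 52 (ribosomal protein). The 6536 rises over all genes were 5159, 8469 and 1852, and the 5942 falls were 11427. Against CFZ the 7 rises were 4, 12 and 1 under the same 3 scalings. The 6722 rises over all genes were 5757, 8618 and 2219. Against DOX the 2 rises were 4 under RLE, 1 under library-size, 4 under upper-quartile and 0 under ribosomal protein scaling. They were 1 without a filter, 4 with DESeq2 and 1 with only the libraries compared. In the same order the 1722 rises over all genes were 2289, 667, 2625, 126, 1518 (of 35429), 2598 and 461 (of 15910). The 7 falls were 13 under library-size and 40 under ribosomal protein scaling and 3 with only the libraries compared. The 2005 falls over all genes were 2820, 8808 and 657. In the interaction the 3 positive and 13 negative calls were 1 and 31 under ribosomal protein scaling. The 1408 and 1862 calls over all genes were 246 and 5217. The replicate block gave 4 rises and 12 falls against DOX, beside 2685 and 2839 over all genes. It removed no call of a deubiquitinase gene in any comparison. The numbers do not pair the libraries in CFZ-DOX against DMSO (correlations of deviations 0.294, 0.058 and 0.080) and against CFZ (0.263, 0.019 and 0.099). There the block added Usp37 and Usp39 (lower with both drugs) and Otud1 and Usp37 (lower against CFZ). In the interaction, where pairing was not examined, it added 6 genes. Over all genes the block gave 6802 rises and 6313 falls with both drugs, against 6536 and 5942 without it. Against CFZ it gave 6971 and 6474, against 6722 and 6144. In the interaction it gave 2356 positive and 2675 negative calls, against 1408 and 1862. Without DOX library 3 and CFZ-DOX library 3 the counts were 22 and 12 with CFZ, 4 and 14 against DOX, and 7 and 23 in the interaction. Over all genes these were 3505 and 4011, 1965 and 2865, and 2619 and 3117. Without DOX library 1 and CFZ-DOX library 1 no count of the 56 genes moved by over 1.5 times. Called under all 5 scalings were 7 rises with CFZ, 3 with DOX, 2 with both drugs, 1 against CFZ, 0 against DOX and 1 in the interaction. The shares over all genes in the same order were 7.91%, 13.4%, 11.1%, 13.3%, 0.757% and 1.47%. Among the called genes Usp44, Usp18 and Usp50 were kept only through libraries with DOX.

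Leaving out single libraries gave 9 to 19 rises and 2 to 6 falls with CFZ, 4 to 10 and 24 to 28 with DOX, 5 to 9 and 31 to 36 with both drugs, 6 to 7 and 36 to 42 against CFZ, 2 to 3 and 6 to 14 against DOX, and 2 to 4 positive and 10 to 21 negative calls in the interaction. Over all genes these were 1716 to 2929 and 1510 to 3063 with CFZ, and 5601 to 6730 and 4861 to 5537 with DOX. They were 6480 to 7149 and 5724 to 6083 with both drugs, and 6650 to 7446 and 5924 to 6282 against CFZ. Against DOX they were 1048 to 2048 and 1499 to 2558, and in the interaction 792 to 2172 and 1357 to 2726. Of the values of single genes under all alternatives, 6724 stayed on their side of the threshold, 251 lost and 310 gained a call, and 44 that were called before or after turned in direction. Under ribosomal protein scaling the direction turned in DOX against DMSO for Uchl3 (-0.12), Usp15 (-0.64), Usp20 (-0.21), Usp3 (-0.26) and Usp5 (-0.81), in CFZ-DOX against DMSO for Otub2 (-0.93), Otud3 (-1.11), Uchl3 (-0.73), Usp15 (-1.56), Usp19 (-1.58), Usp20 (-1.22), Usp27x (-1.41), Usp3 (-1.33), Usp38 (-1.01) and Usp49 (-1.05), in CFZ-DOX against CFZ for Otub2 (-0.51), Otud3 (-1.33), Uchl3 (-0.14), Usp21 (-1.19), Usp38 (-1.46), Usp46 (-1.55) and Usp49 (-0.57), in CFZ-DOX against DOX for Otud5 (-0.72), Uchl3 (-0.61), Uchl5 (-0.58), Usp10 (-0.71), Usp14 (-0.66), Usp16 (-0.30), Usp21 (-0.67) and Usp32 (-0.63), in the interaction for Uchl3 (-0.019). Under upper-quartile scaling it turned in DOX against DMSO for Otud5 (0.30) and Usp19 (0.10), in CFZ-DOX against DMSO for Otud5 (0.49), Usp16 (0.37), Usp21 (0.39), Usp45 (0.027) and Usp8 (0.11), in CFZ-DOX against CFZ for Otud5 (0.057), Uchl5 (0.40), Usp1 (0.023), Usp15 (0.14) and Usp39 (0.25). Without DOX library 3 and CFZ-DOX library 3 Usp38 turned in CFZ-DOX against CFZ (-0.34, and up to 0.26 without a single library). The cause was not tested. Depth limits Usp44, Usp50, Usp18 and Usp29, with under 200 counts each over all libraries.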
